A study of Mus musculus with 7 samples.

Results

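The genes described here code for 10 enzymes of serine, proline, asparagine and mitochondrial one-carbon synthesis, among 14819 rows of a table of read counts in mouse primary hepatocytes. They are *Phgdh*, *Psat1* and *Psph* for serine, *Shmt2*, *Mthfd2* and *Aldh1l2* for mitochondrial one-carbon units, *Aldh18a1* and *Pycr1* for proline, *Asns* for asparagine, and *Pck2* for phosphoenolpyruvate. The 10 genes were selected with the difference between WDR6-WKO and WT hepatocytes in these same libraries in view, so that difference is described for them without a test. All 10 were found in the table by symbol, and all 10 passed the filter on low counts that left 14779 genes tested. The fitted log2 fold change (WDR6-WKO minus WT) was above 0 for each of them, from 0.51 for *Shmt2* and *Pycr1* to 1.74 for *Aldh1l2*, with a median of 1.04 beside a median of 0.01 over all genes tested.

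Serine is built from an intermediate of glycolysis in the cytosol by the enzymes PHGDH, PSAT1 and PSPH, acting one after the other. Inside mitochondria, SHMT2 splits serine into glycine and a one-carbon unit carried on tetrahydrofolate, which MTHFD2 oxidizes to a formyl group and ALDH1L2 can release as carbon dioxide, while the cytosol holds a parallel set of folate enzymes. Proline is made from glutamate by ALDH18A1 and the PYCR reductases, and asparagine from aspartate and glutamine by ASNS. Many of these genes are known as targets of the transcription factor ATF4, which acts in the cell's response to a shortage of amino acids and to stress of the endoplasmic reticulum.

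The libraries came from untreated primary hepatocytes of male C57BL/6J mice, 4 from WT mice and 3 from mice in which exon 2 of *Wdr6* had been deleted by CRISPR–Cas9 in the whole body (WDR6-WKO). The hepatocytes were isolated by collagenase perfusion and cultured in medium with serum, with an overnight incubation, and a default age of 7 weeks holds in the methods for C57BL/6J mice, with no separate age for the animals behind these libraries. A deletion in the whole body is present in every cell type of the liver and throughout the animal's life, so a change that arises in the hepatocyte and one that arises around it cannot be told apart. The labels number the libraries within a genotype without saying whether each came from a separate mouse. A p-value here weighs the difference between genotypes against the spread between these libraries, which may not be the spread between mice. *Wdr6* stood at 5.39% of its WT level in the WDR6-WKO libraries, whose labels it therefore matched.

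Libraries held between 17816913 and 23668940 counted reads. Levels are given as CPM, in which each count is divided by the library's total after adjustment by its TMM factor (0.991 to 1.017). Means are given ± s.d. over the libraries of a genotype, and fitted fold changes with their standard error (s.e.). Hepatocyte markers differed widely in level. *Alb* was abundant in every library, whereas *Cps1* stood at 22.9 to 44.4 CPM and *Tat* had 9 to 40 reads per library. The sum over 10 hepatocyte markers was 17220 to 20409 CPM in WT and 14964 to 16941 CPM in WDR6-WKO, and most of it came from *Alb* and *Apob*. Of the 10, 5 were called lower, which means an adjusted p below 0.05. Of 12 markers of Kupffer cells and other macrophages, 3 were called higher, with sums of 860 to 939 CPM in WT and 993 to 1191 CPM in WDR6-WKO. The sums over 5 cholangiocyte markers, of which 2 were called higher, were 3068 to 3360 CPM in WT and 3713 to 4306 CPM in WDR6-WKO, and most of both came from *Spp1*. For 10 stellate cell markers, of which 2 were called higher, they were 675 to 735 CPM and 726 to 793 CPM, and for 10 sinusoidal endothelial markers, of which 1 was called lower, 330 to 378 CPM and 311 to 368 CPM. Of 7 lymphocyte markers 1, *Ptprc*, was tested and not called. Of 10 proliferation markers 1 was called lower, with sums of 1460 to 1514 CPM in WT and 1363 to 1506 CPM in WDR6-WKO. Of 13 genes of dedifferentiation in culture 1 was called higher and 2 lower. Their sums were 21567 to 22223 CPM in WT and 18832 to 20869 CPM in WDR6-WKO. No marker that was tested was at 0 in all libraries of a genotype. The part of these markers in the levels below was not tested, and in whole cultures fewer cells of a type and less RNA per cell cannot be told apart.

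Promoter sequence was examined because the 10 genes were higher together. RefSeq windows of GRCm38.p6 that reach from 250 bases before to 50 bases after a gene's start were found for 9 of the 10 genes, all but *Aldh1l2*. The response element bound by C/EBP–ATF dimers, among them those with ATF4, was searched as TGATGNAAN on both strands. It was found for *Asns*, *Pycr1* and *Pck2*, or in 3 of the 10 windows of the 9 genes. Of all 32851 windows 3.95% held it, and 2.31% of the 13528 windows of genes tested here. These shares were not compared by a test. The E-box CACGTG was found for *Aldh18a1* alone of the 9, in 1 of the 10 windows, and in 9.65% of the windows of genes tested. The cAMP response element TGACGTCA was found for none of the 9 and in 2.90% of the windows of genes tested. The stretches that hold these matches are shown 5′ to 3′ on the strand of each gene, with the match in capitals. In *Asns* it lay at chr6:7693214-7693242 on the minus strand, where the stretch overlaps an annotated exon, in *Pycr1* at chr11:120643813-120643881 on the minus strand, in *Pck2* at chr14:55540132-55540200 on the plus strand, with the element itself on the opposite strand, and in *Aldh18a1* at chr19:40588487-40588552 on the minus strand.
Asns: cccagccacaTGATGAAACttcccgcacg
Pycr1: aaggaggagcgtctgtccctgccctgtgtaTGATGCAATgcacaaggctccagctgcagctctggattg
Pck2: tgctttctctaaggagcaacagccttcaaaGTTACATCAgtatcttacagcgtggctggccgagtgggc
Aldh18a1: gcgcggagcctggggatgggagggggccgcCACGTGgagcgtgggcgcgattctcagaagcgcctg
The matches started 23 bases before the gene's start in *Asns*, 103 in *Pycr1*, 104 in *Pck2* and 59 in *Aldh18a1*. A match of letters is a description of the window and says nothing of whether a factor binds there.

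The 3 serine genes had separate ranges in the genotypes, with all WDR6-WKO libraries above all WT libraries. *Phgdh*, which codes for the dehydrogenase that opens the pathway by oxidizing 3-phosphoglycerate, stood at 273, 255, 250.1 and 262 CPM in WT replicates 1 to 4 and at 359, 435 and 364 CPM in WDR6-WKO replicates 1 to 3. Its groups were apart, with the lowest WDR6-WKO library 1.32 times the highest WT library, and means of 260.0 ± 9.87 CPM (n = 4) and 386 ± 42.3 CPM (n = 3). The fitted log2 fold change of *Phgdh* was 0.57 (s.e. 0.06). The gene lies at chr3:98313170-98339990 on the minus strand of GRCm38, and 47.8% of the 50-base sequences of its transcripts are also found in transcripts of *Gm7901*, *Gm9347* or *Gm8341*, so its count is uncertain to the extent that reads were divided among them.

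*Psat1* codes for the aminotransferase that takes an amino group from glutamate in the next step. It was counted at 127.0, 128, 123 and 124 CPM in the WT libraries and at 206, 264 and 261 CPM in the WDR6-WKO libraries. The WT libraries lay within a few CPM of each other and the WDR6-WKO libraries far above them, with replicate 1 below the other two. The means were 125.6 ± 2.39 CPM (n = 4) and 244 ± 32.4 CPM (n = 3), and the log2 fold change was 0.96 (s.e. 0.07). *Psph*, for the phosphatase that releases serine in the last step, stood at 25.7, 27.5, 26.2 and 26.2 CPM in WT and at 46.5, 59.0 and 51.9 CPM in WDR6-WKO. The groups were again apart, and the log2 fold change was 0.99 (s.e. 0.08). Of the exonic bases of *Psph*, at chr5:129765558-129787449, 10.4% overlap *Cct6a* on the opposite strand, and the sources used here do not state whether reads were counted by strand. *Cct6a* itself stood at 263 ± 7.38 CPM (n = 4) in WT and 281 ± 6.78 CPM (n = 3) in WDR6-WKO, a log2 fold change of 0.10 that was not called (adjusted p = 0.172).

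The mitochondrial one-carbon genes spanned the whole range of fold changes seen among the 10, with *Shmt2* at the lower end and *Aldh1l2* at the upper. *Shmt2*, whose product moves the one-carbon unit of serine onto tetrahydrofolate, was at 129, 122, 111 and 110.0 CPM in WT and at 148, 201 and 157 CPM in WDR6-WKO. Its groups were apart by the narrowest margin of the genes whose groups did not overlap, with the lowest WDR6-WKO library 1.15 times the highest WT library. The log2 fold change of *Shmt2* was 0.51 (s.e. 0.10). *Mthfd2*, for the dehydrogenase and cyclohydrolase that turns methylene- into formyl-tetrahydrofolate, stood at 30.5, 33.0, 31.4 and 30.3 CPM in WT and at 65.2, 93.1 and 82.0 CPM in WDR6-WKO. Even the lowest WDR6-WKO library was 1.97 times the highest WT library, and the log2 fold change was 1.35 (s.e. 0.10).

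*Aldh1l2*, which codes for the mitochondrial formyl-tetrahydrofolate dehydrogenase, an enzyme that also makes NADPH, had the largest fold change of the 10 genes and few reads. It was counted 55, 73, 56 and 61 times in WT and 197, 268 and 196 times in WDR6-WKO, or at 2.77, 3.82, 2.98 and 3.06 CPM and at 8.19, 12.7 and 10.9 CPM. The groups did not overlap, with the lowest WDR6-WKO library 2.14 times the highest WT library in CPM. The means were 3.16 ± 0.459 CPM (n = 4) and 10.6 ± 2.26 CPM (n = 3), and the log2 fold change was 1.74 (s.e. 0.16). Of its exonic bases, at chr10:83487450-83534140, 14.1% overlap *D10Wsu102e* on the opposite strand. *D10Wsu102e* stood at 66.5 ± 2.84 CPM (n = 4) in WT and 72.2 ± 1.49 CPM (n = 3) in WDR6-WKO and was not called (log2 fold change 0.12, adjusted p = 0.179).

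The proline genes act one after the other and had unlike fold changes. *Aldh18a1*, for the synthase that reduces and activates glutamate, was at 33.9, 34.5, 33.7 and 33.2 CPM in WT and at 59.7, 79.1 and 77.0 CPM in WDR6-WKO. The WT libraries were almost level and all WDR6-WKO libraries lay well above them, and the log2 fold change was 1.09 (s.e. 0.08). *Pycr1*, for a mitochondrial reductase that forms proline itself, was at 2.67, 4.14, 3.14 and 3.16 CPM in WT and at 5.40, 5.06 and 3.46 CPM in WDR6-WKO. It was the one gene of the 10 whose groups overlapped, since WDR6-WKO replicate 3 lay below WT replicate 2. These levels rested on 53 to 79 reads per WT library and 62 to 130 per WDR6-WKO library, and the log2 fold change was 0.51 (s.e. 0.19).

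*Asns*, for asparagine synthetase, stood at 41.4, 39.0, 35.3 and 39.5 CPM in WT and at 81.4, 122 and 121 CPM in WDR6-WKO. The WDR6-WKO libraries were far above the WT libraries but also far from each other, with replicate 1 much the lowest. The means were 38.8 ± 2.56 CPM (n = 4) and 108 ± 23.3 CPM (n = 3), a log2 fold change of 1.48 (s.e. 0.14). *Pck2*, for the mitochondrial enzyme that makes phosphoenolpyruvate from oxaloacetate, was at 26.9, 26.3, 21.3 and 22.5 CPM in WT and at 51.3, 65.4 and 54.7 CPM in WDR6-WKO. Its groups were apart as well, with a log2 fold change of 1.23 (s.e. 0.10). Both are among the genes with the response element shown above.

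**Figure D1:**
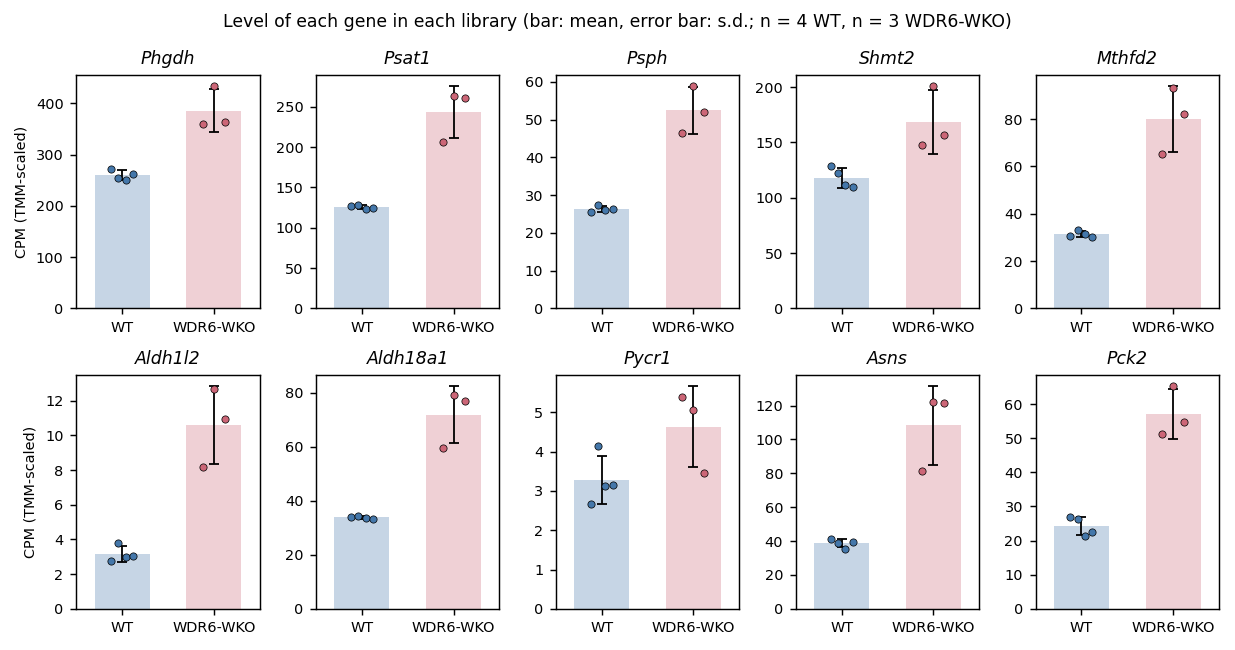
Level of each of the 10 genes in CPM (vertical axes, from 0) in WT and WDR6-WKO libraries, with points for libraries, bars for means and error bars for s.d. (n = 4 WT, n = 3 WDR6-WKO). The WDR6-WKO points lie above all WT points for every gene but *Pycr1*, where they run from 3.46 to 5.40 CPM and WT points from 2.67 to 4.14 CPM.

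By the adjusted test over the whole table, 9 of the 10 genes were called higher and 0 lower, all but *Pycr1*, beside 6.65% of all genes tested called higher and 6.18% called lower. The CPM ranges of the genotypes were apart, with WDR6-WKO higher, for the same 9 genes and for 11.8% of all genes tested. Since the genes were chosen on this contrast, nothing is read from these counts. The number of genes called over the whole table was 1897 and lay between 1032, without WDR6-WKO replicate 2, and 4233, without WDR6-WKO replicate 3. It was 1210 without WT replicate 3, 1182 without WT replicate 4 and 1180 without WDR6-WKO replicate 1. With WDR6-WKO replicate 3 left out, *Pycr1* was called and *Shmt2* was not, while every other omission left the same 9 genes called.

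The WDR6-WKO libraries were ordered in nearly the same way for all genes but one. Replicate 1 was the lowest and replicate 2 the highest of the 3 for 9 of the 10 genes, an order seen in 10.0% of all genes tested. *Pycr1* was the exception, with replicate 3 lowest and replicate 1 highest. The mean over the 10 genes of log2 CPM minus the WT mean was 0.84, 1.22 and 1.02 in WDR6-WKO replicates 1 to 3, and between -0.06 and 0.10 in the WT libraries. The coefficient of variation was larger in WDR6-WKO than in WT for each of the 10 genes and for 61.8% of all genes tested. Its median over the 10 genes was 5.30% in WT and 15.9% in WDR6-WKO, beside 6.84% and 9.28% over all genes tested. The same 9 genes had replicate 1 lowest when libraries were scaled by median-of-ratios size factors or by their totals alone.

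**Figure D2:**
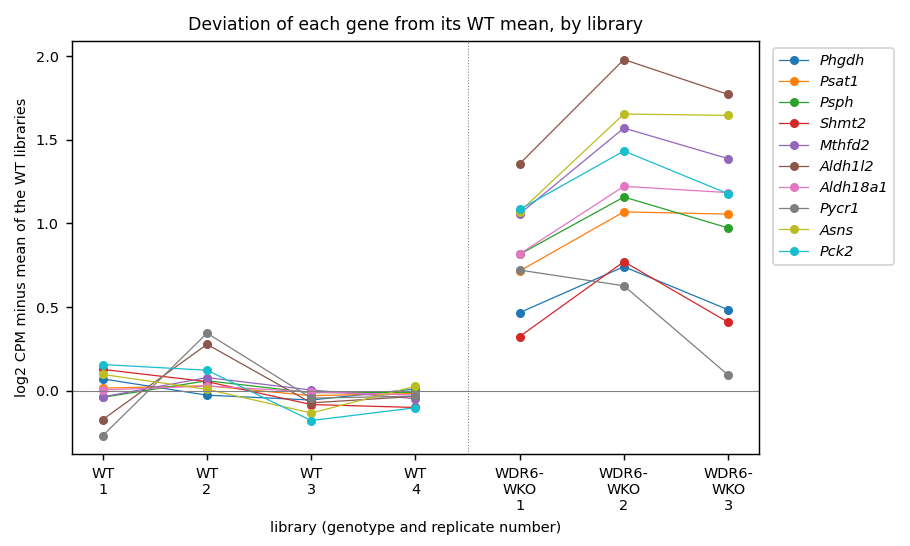
Log2 CPM of each gene minus its mean over the WT libraries (vertical axis) in each of the 7 libraries (horizontal axis), with 1 coloured line per gene that joins its points within a genotype and implies no order of the libraries. The lines peak together at WDR6-WKO replicate 2, from 0.74 for *Phgdh* to 1.98 for *Aldh1l2*, except that of *Pycr1*, which was 0.72, 0.63 and 0.09 in replicates 1 to 3.

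The profile of *Psph* over the 7 libraries was the nearest to the mean profile of the other 9 genes, at a Euclidean distance of 0.125 in log2 CPM minus the WT mean. *Aldh18a1* at 0.211 and *Psat1* at 0.242 followed, and *Shmt2* at 1.04, *Pycr1* at 1.29 and *Aldh1l2* at 1.34 were the farthest. This distance depends on the size of the fold change as well as on the order of the libraries. *Shmt2* had the smallest and *Aldh1l2* the largest fold change of the 10. Of all other genes with a mean of at least 1 CPM, those nearest to the mean profile of the 10 were *Cth*, for the enzyme that makes cysteine from cystathionine, at 0.165, *Slc7a1*, for a carrier of cationic amino acids, at 0.190, *Jdp2*, for a basic leucine zipper protein, at 0.225, *Gadd45a* at 0.230 and *Slc6a9*, for a glycine transporter, at 0.282. *Cth* was at 35.4, 37.8, 34.6 and 36.1 CPM in WT and at 61.5, 84.6 and 80.4 CPM in WDR6-WKO. The libraries of *Slc7a1* were closer together, at 42.0, 46.3, 40.5 and 40.8 CPM in WT and at 82.5, 89.6 and 84.9 CPM in WDR6-WKO. In both genes replicate 1 was the lowest and replicate 2 the highest of the WDR6-WKO libraries, as in 9 of the 10 enzymes. Because these genes were picked for that likeness, it was not tested.

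Levels of different genes can be compared only per length, and were divided by the exonic length of each gene in the GENCODE annotation. In WT hepatocytes the order ran from *Phgdh* at 105 ± 3.97 CPM per kb of exons (n = 4) through *Shmt2* at 38.0 ± 2.90, *Psat1* at 29.5 ± 0.561 and *Asns* at 14.2 ± 0.935 CPM per kb. *Mthfd2* at 8.98 ± 0.360, *Aldh18a1* at 8.31 ± 0.131, *Psph* at 6.09 ± 0.180 and *Pck2* at 3.11 ± 0.354 CPM per kb came next. *Pycr1* at 0.833 ± 0.157 and *Aldh1l2* at 0.421 ± 0.0612 CPM per kb were the lowest. By this length the WT ranges of neighbours in the order did not overlap, the closest being *Mthfd2* at 8.68 to 9.48 and *Aldh18a1* at 8.16 to 8.48 CPM per kb. By the length of the longest transcript, some neighbours did overlap. The 3 serine genes thus differed in level more than any of them differed between genotypes. In WDR6-WKO hepatocytes *Psat1* at 57.3 ± 7.61 CPM per kb (n = 3) came above *Shmt2* at 54.2 ± 9.25, and *Aldh1l2* at 1.41 ± 0.301 above *Pycr1* at 1.18 ± 0.263, and within both pairs the WDR6-WKO ranges overlapped.

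**Figure D3:**
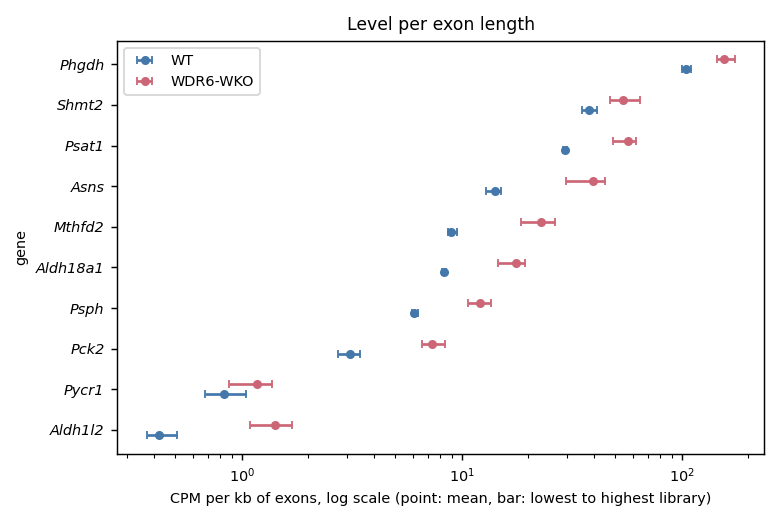
Level of each gene in CPM per kb of exons on a log scale (horizontal axis), with genes in the order of their WT means (vertical axis), points for the mean of each genotype and bars from the lowest to the highest library (n = 4 WT, n = 3 WDR6-WKO). The WT means run from 0.421 for *Aldh1l2* to 105 for *Phgdh*, and the WDR6-WKO bar lies to the right of the WT bar for every gene except *Pycr1*, where they overlap.

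Most of the mitochondrial enzymes have a relative in the cytosol or a second mitochondrial form, which was not used to choose the genes. Of the related genes given here, *Pck1* was called lower and no other was called. *Shmt1*, the cytosolic counterpart of *Shmt2*, stood at 49.4, 45.6, 44.2 and 41.8 CPM in WT and at 45.2, 44.9 and 42.6 CPM in WDR6-WKO. Its groups overlapped, and its log2 fold change of -0.03 (s.e. 0.07) was not called (adjusted p = 0.803). *Mthfd1*, for the cytosolic enzyme that carries out the same steps as *Mthfd2* and one more, was at 99.9, 91.4, 93.6 and 92.3 CPM in WT and at 106, 106 and 93.9 CPM in WDR6-WKO, a log2 fold change of 0.11 (s.e. 0.06, adjusted p = 0.218). *Mthfd2l*, for a second mitochondrial form, had a log2 fold change of 0.23 (s.e. 0.10, adjusted p = 0.151), and *Aldh1l1*, the cytosolic counterpart of *Aldh1l2*, one of 0.09 (s.e. 0.06, adjusted p = 0.418). Neither was called, nor were *Pycrl*, for a cytosolic reductase (0.13, s.e. 0.11, adjusted p = 0.492), and *Asnsd1*, which shares a domain with *Asns* (-0.07, s.e. 0.14, adjusted p = 0.813). The signs of *Shmt1* and *Asnsd1* were not the same in every alternative analysis. Of the exonic bases of *Asnsd1*, 56.5% are shared with other annotated genes, and its count is uncertain.

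Without WDR6-WKO replicate 3, *Mthfd1* and *Aldh1l1* were called higher, with log2 fold changes of 0.17 (adjusted p = 0.0119) and 0.16 (adjusted p = 0.0263).

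*Pck1*, for the cytosolic form of the enzyme and well known for its place in gluconeogenesis, was rare in these cultures. It stood at 1.87, 0.890, 2.07 and 1.05 CPM in WT and at 0.623, 0.378 and 0.279 CPM in WDR6-WKO, with every WDR6-WKO library below every WT library. These levels, and the ratio to *Pck1* below, rested on 17 to 39 reads per WT library and 5 to 15 per WDR6-WKO library. The log2 fold change of *Pck1* was -1.73 (s.e. 0.39, adjusted p = 0.00925). The log2 ratio of *Pck2* to *Pck1* was 4.13 ± 0.66 (n = 4) in WT and 7.14 ± 0.68 (n = 3) in WDR6-WKO. The mean ratios of 3 other pairs of mitochondrial and cytosolic genes were higher in WDR6-WKO as well, going from 1.38 ± 0.04 to 1.92 ± 0.23 for *Shmt2* over *Shmt1*, from -1.59 ± 0.10 to -0.36 ± 0.29 for *Mthfd2* over *Mthfd1*, and from -4.37 ± 0.23 to -2.72 ± 0.38 for *Aldh1l2* over *Aldh1l1*. The groups did not overlap in these 4 ratios. For *Pycr1* over *Pycrl* they overlapped, with -2.14 ± 0.27 in WT and -1.77 ± 0.27 in WDR6-WKO. No test was made of these ratios because the upper gene of each had been selected on the contrast.

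**Figure D4:**
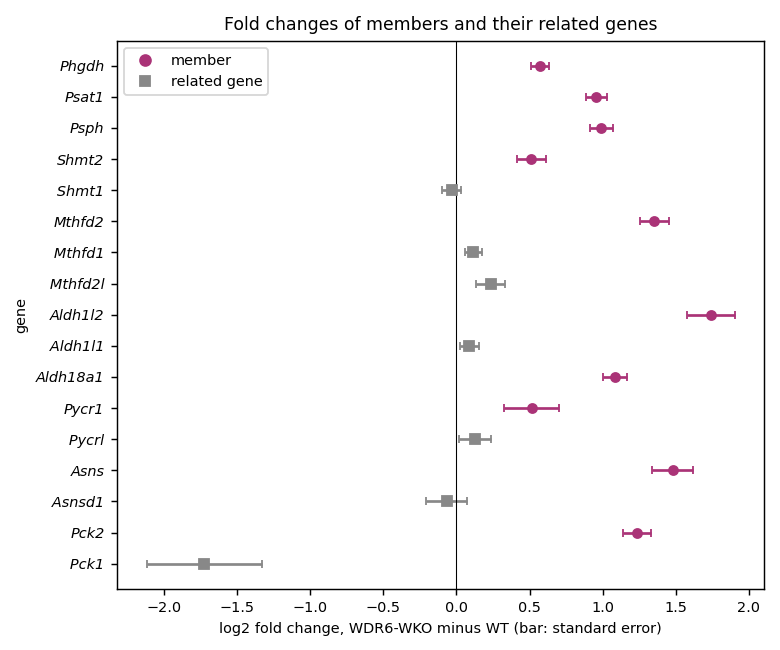
Log2 fold change (WDR6-WKO minus WT, horizontal axis) of the 10 genes (circles) and of related genes (squares), each listed under its member (vertical axis), with bars for the standard error of the fit (n = 4 WT, n = 3 WDR6-WKO). The circles run from 0.51 to 1.74, and the squares lie between -0.07 and 0.23 apart from *Pck1* at -1.73.

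Around these enzymes lie the genes that use or supply the same metabolites. They were taken from 5 lists of 82 gene symbols, *Pycrl* being listed as *Pycr3* too, and 79 were tested. Of the 79, 8 were called higher and 10 lower and 61 were not called, beside 6.65% of all genes tested called higher and 6.18% lower. Their median log2 fold change was 0.02, beside 0.01 over all genes tested. Without WDR6-WKO replicate 3 there were 15 called higher and 14 lower. Of the 24 genes for folate enzymes and carriers, 4 rose and 1 fell, with a median of 0.08. *Slc19a1*, for the reduced folate carrier, rose by 0.40 (s.e. 0.07, adjusted p = 0.00145) and *Mthfd1l*, for the mitochondrial enzyme that sets formate free, by 0.36 (s.e. 0.06, adjusted p = 0.000907) on the log2 scale. *Ftcd*, for an enzyme of histidine breakdown that feeds the folate pool, fell from 19.2 ± 2.56 CPM (n = 4) to 10.4 ± 2.32 CPM (n = 3), a log2 fold change of -0.87 (s.e. 0.14, adjusted p = 0.0011).

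Of 21 genes tested for the use of serine and glycine, 2 rose and 1 fell, with a median of 0.01. Those that rose were *Cth*, whose levels are given above (log2 fold change 1.07, s.e. 0.09, adjusted p = 3.43e-06), and *Gldc*. *Gldc* codes for the decarboxylase of the glycine cleavage system and was at 222, 222, 215 and 216 CPM in WT and at 319, 304 and 286 CPM in WDR6-WKO (0.47, s.e. 0.05, adjusted p = 9.00e-06). *Amt*, for the aminomethyltransferase of that system, went the other way, from a range of 8.33 to 12.5 CPM in WT to 5.08 to 6.66 CPM in WDR6-WKO (-0.85, s.e. 0.15, adjusted p = 0.00132). Members of one enzyme complex thus moved in opposite directions, and its other listed components, *Gcsh* and *Dld*, were not called (0.05, adjusted p = 0.608, and 0.11, adjusted p = 0.243).

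Of 9 genes tested for proline and ornithine, 0 rose and 2 fell, with a median of 0.10. They were *P4ha1*, for a subunit of prolyl 4-hydroxylase (-0.37, s.e. 0.06, adjusted p = 0.000718), and *Oat*, for the aminotransferase that links ornithine to the proline precursor (-0.31, s.e. 0.05, adjusted p = 0.000988). Of 12 genes for asparagine, aspartate and glutamine, 1 rose and 2 fell, with a median of 0.03. *Got1*, for the cytosolic aspartate aminotransferase, rose from 122 ± 3.47 to 159 ± 8.09 CPM (0.38, s.e. 0.05, adjusted p = 0.000127). *Glul*, for glutamine synthetase, fell from 224 ± 8.93 to 150.5 ± 6.89 CPM (-0.58, s.e. 0.05, adjusted p = 2.37e-06), and *Glud1*, for glutamate dehydrogenase, from 1504 ± 26.3 to 1025 ± 43.3 CPM (-0.55, s.e. 0.05, adjusted p = 1.04e-06). Glutamate, which both of these enzymes handle, is also a substrate of the *Psat1* and *Aldh18a1* enzymes.

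Of 13 genes tested for glycolysis and phosphoenolpyruvate, 1 rose and 4 fell, with a median of -0.12. *Pck1*, described above, fell, as did *Fbp1*, for the phosphatase of gluconeogenesis (-0.33, s.e. 0.09, adjusted p = 0.0285), and *Tpi1*, for triosephosphate isomerase (-0.21, s.e. 0.06, adjusted p = 0.0333). *Pklr*, for the liver form of pyruvate kinase, rose by 0.16 (s.e. 0.05, adjusted p = 0.0473). The calls of *Fbp1*, *Tpi1* and *Pklr* lay near the threshold and were lost when any of several libraries was left out. That of *Fbp1* was lost without WT replicate 1, 2 or 3 or WDR6-WKO replicate 1 (adjusted p of up to 0.117), that of *Tpi1* without any of the WT replicates or WDR6-WKO replicate 1 (up to 0.0959), and that of *Pklr* without any library but WDR6-WKO replicate 3 (up to 0.242). *Gapdh* had the highest positive log2 fold change of the list at 1.52 (s.e. 1.35, adjusted p = 0.541) and was singled out after its values were seen. Its level was 121 CPM in WT replicate 2 and 289 CPM in WDR6-WKO replicate 2, against 12.8 to 43.7 CPM in the other libraries.

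**Figure D5:**
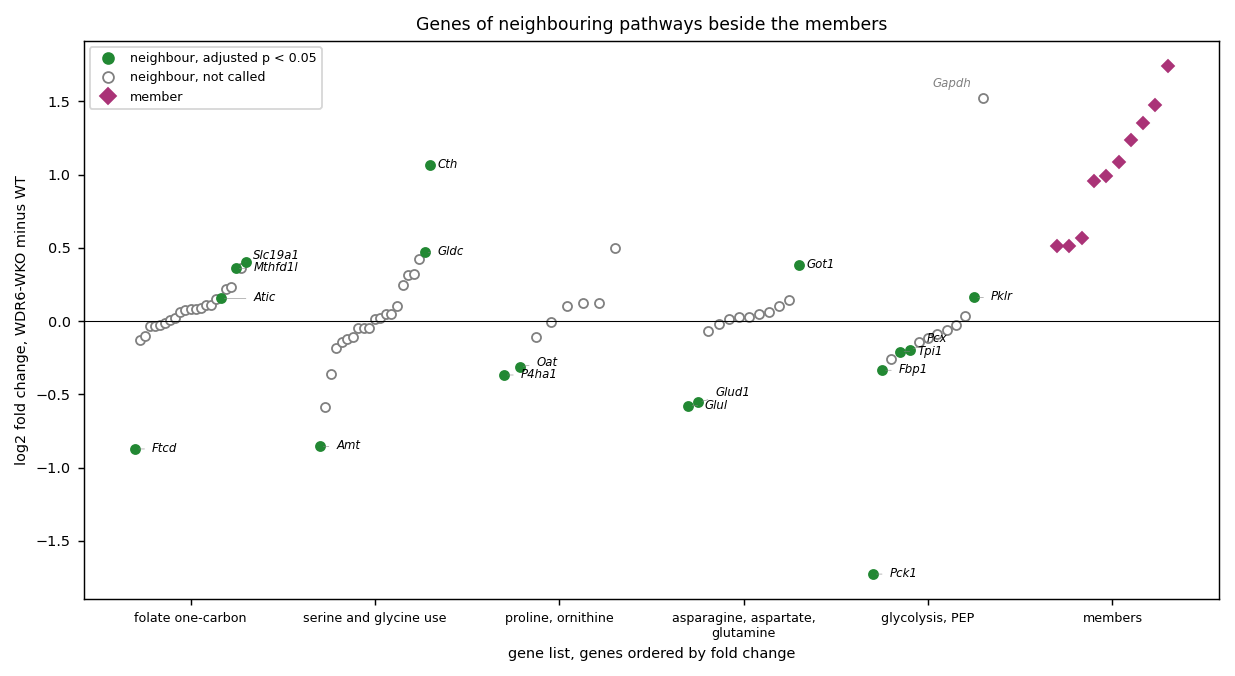
Log2 fold change (WDR6-WKO minus WT, vertical axis) of genes of 5 neighbouring lists and of the 10 enzymes (horizontal axis, genes ordered by fold change within a list), with filled circles for neighbours with an adjusted p below 0.05, open circles for others and diamonds for the 10 enzymes (n = 4 WT, n = 3 WDR6-WKO). The diamonds lie between 0.51 and 1.74, with a median of 1.04. The circles lie between -1.73 and 1.52, and the medians of the neighbouring lists between -0.12 and 0.10.

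Transcription factors that are described at promoters of these enzymes were also counted. Of 9 on the list 7 were called higher and 1 lower, beside 6.65% and 6.18% of all genes tested. The list was chosen with earlier results of these data known, so nothing is read from this count. *Atf4* stood at 195, 187, 178 and 177 CPM in WT and at 273, 310.4 and 269 CPM in WDR6-WKO. The groups did not overlap, replicate 2 was again the highest, and the log2 fold change was 0.62 (s.e. 0.06, adjusted p = 3.25e-06). *Ddit3*, for the stress-induced factor CHOP, was at 11.2, 9.90, 7.45 and 8.74 CPM in WT and at 24.5, 41.8 and 29.3 CPM in WDR6-WKO (1.77, s.e. 0.20, adjusted p = 0.000514). *Atf3*, for another stress-induced factor of the same family as ATF4, was at 24.4, 21.9, 19.5 and 19.6 CPM and at 39.1, 43.7 and 38.8 CPM (0.93, s.e. 0.09, adjusted p = 3.25e-06).

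Smaller increases were measured for *Atf5* (0.37, adjusted p = 0.00294), *Myc* (0.30, adjusted p = 0.00156), *Nfe2l1* (0.27, adjusted p = 0.0107) and *Cebpg*, for a partner of ATF4 (0.25, adjusted p = 0.0076). *Nfe2l1* was no longer called without WDR6-WKO replicate 1 (adjusted p = 0.0622) or 2 (adjusted p = 0.07). *Cebpb*, for another dimer partner, had a log2 fold change of 0.20 with an s.e. of 0.21 and was not called (adjusted p = 0.594). *Nfe2l2*, for NRF2, which is described at serine synthesis genes in other cells, fell from 434 ± 9.36 CPM (n = 4) to 337 ± 21.4 CPM (n = 3), a log2 fold change of -0.37 (s.e. 0.05, adjusted p = 0.000148). These are levels of mRNA, and the factors are known to be controlled to a large part by translation and protein stability, which were not measured here.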

How the data were processed

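RNA of 7 hepatocyte samples was sequenced on an Illumina HiSeq platform from NEBNext Ultra libraries. Reads were aligned by the authors with Bowtie2 2.2.3 to mm10 (GRCm38), and they deposited unnormalized read counts, 1 row per gene symbol. The counting tool, annotation and strand setting are not given in the sources used here. No row of the deposited table held fewer than 50 reads over the 7 libraries. Columns were matched to samples by genotype and replicate number.

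Counts were analysed with edgeR 4.0.16 in R 4.3.3 (TMM scaling, filterByExpr, robust quasi-likelihood test between genotypes), with Benjamini-Hochberg adjustment over 14779 genes. Standard errors are those of the log2 fold change. Profiles used log2 CPM with a prior count of 2. The biological coefficient of variation was 7.40%, so at this depth replicate spread exceeded counting error except in genes of few reads. No library was a copy of another (chi-square per gene 3.80 to 16.0 within genotypes). The largest values were those of WDR6-WKO replicate 3, at 14.3 against replicate 1 and 16.0 against replicate 2. Between WDR6-WKO replicates 1 and 2 it was 5.13. The steps were tested on simulated data.

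The 10 genes, and the lists of neighbours, transcription factors and markers, were chosen with earlier results of these data known. Named genes were the 10 enzymes, their relatives, the 3 higher and 3 lower called genes of smallest p on each of the 5 neighbouring lists, all listed transcription factors, and the 5 genes nearest in profile. *Pycr3* was found as *Pycrl*, and *Tdh* and *Aldoa* were not analysed here. Some genes that meet the naming rule are not reported here. Coordinates, exon lengths and overlaps came from GENCODE for GRCm38. Shared sequence was the percent of a gene's 50-base sequences found in transcripts of other genes. Alternatives were DESeq2 1.42.0, limma-voom (limma 3.58.1), other scalings and filters, a replicate block, each library left out, the study's thresholds for calls, and the longest transcript as length.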

Additional observations from a re-analysis of the deposited data

How the results depend on the processing

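Over 14 alternative fits, the log2 fold changes of the 10 enzymes moved by less than 1 s.d. of the replicates in 140 of 140 values and none was reversed, with ranges of 0.47 to 0.61 for *Phgdh*, 0.36 to 0.60 for *Shmt2*, 0.38 to 0.67 for *Pycr1* and 1.59 to 1.90 for *Aldh1l2*. Their median lay between 0.95, without WDR6-WKO replicate 2, and 1.14, without WDR6-WKO replicate 1. With each replicate left out, the number of genes called over the whole table ranged from 1032 to 4233, and the neighbours called higher from 6 to 15, both highest without WDR6-WKO replicate 3. Library sizes alone gave 1212 genes called higher and 696 lower, in place of 983 and 914, and moved the median of all genes to 0.03. A log2 fold change beyond 0.35 in size with an unadjusted P below 0.05 called 949 genes higher and 583 lower, and 10 of the 10 enzymes. DESeq2 called 1989 genes, limma-voom 1840 and the median-of-ratios size factors 1897. Samples with the same replicate number did not deviate together over all genes tested (r of 0.0396, 0.0202 and 0.0380), although in genes with a mean of at least 10 CPM r was 0.198, 0.104 and 0.169, and the WDR6-WKO libraries of replicates 2 and 3, but not 1, correlated best with their own number. The replicate block called 1762 genes, 9 of the 10 enzymes, and 6 neighbours higher and 12 lower, and among the named genes it ended the call of *Pklr* alone (adjusted p = 0.0838). The call of *Pklr* was also lost with DESeq2 (adjusted p = 0.0512), limma-voom (0.053) and the median-of-ratios size factors (0.0545). That of *Tpi1* was lost with library sizes alone (adjusted p = 0.0647). For 32 other named genes, 420 of 447 recomputed values kept their side of the threshold, 22 lost the call and 5 gained it. No gene called in the main or the alternative fit changed direction, whereas *Shmt1* and *Asnsd1*, not called, did in some fits. Per length of the longest transcript the WT levels were higher, 137 CPM per kb for *Phgdh* and 0.524 for *Aldh1l2*, and the order of the 10 genes was unchanged. By that length the WT ranges of *Shmt2* (48.0 to 56.3 CPM per kb) and *Psat1* (47.0 to 49.0) overlapped. Those of *Aldh18a1* (9.42 to 9.78) and *Psph* (8.92 to 9.56) overlapped too. *Aldh1l2* and *Pycr1*, with fewer than 300 reads in every library, had the largest standard errors of the log2 fold change among the 10 in the main fit, 0.16 and 0.19.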
